A study of Mus musculus with 19 samples.

Results

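Thymocytes that carried RNA for the IL-2 receptor alpha chain (Il2ra, the surface protein CD25) and for a TNF receptor of the costimulatory kind, but none for Foxp3, were taken from single-cell data of the mouse thymus. Members were chosen by UMI counts of these genes. A cell was a member if it held at least 1 unique molecular identifier (UMI, 1 captured RNA molecule) of Il2ra, at least 1 UMI of Tnfrsf4 (OX40), Tnfrsf9 (4-1BB) or Tnfrsf18 (GITR), and 0 UMIs of Foxp3, Ptcra, Rag1, Cd8b1, Zbtb16 and Cd79a. The last 5 genes mark immature or dividing thymocytes, the CD8 lineage, innate-like T cells and B cells. Of 85389 barcodes, 79569 cells held at most 15% mitochondrial UMIs and at least 200 genes, and 267 of those were members, here called Il2ra+Foxp3- cells. The levels of the genes in the rule, and of the antibodies to their products, describe how the cells were chosen and were not tested. How often members occurred was compared between CD4-fated and CD8-fated mice.

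CITE-seq, in which antibodies with DNA tags make surface proteins countable beside the RNA of each cell, was run on thymocytes of 17 female mice aged 4 to 8 weeks on 19 lanes. The study asked how developing thymocytes choose the CD4 or the CD8 lineage. Wild-type C57BL/6 (B6) mice have a polyclonal T cell receptor (TCR) repertoire: 3 were sorted for CD5+TCRB+ cells, and 2 others, numbered 4 and 5 and run on 2 lanes each, were not sorted. There were 2 mice of each other genotype.

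The MHCI-/- mice lack MHC class I at the cell surface, so that their polyclonal T cells are CD4-fated, and the MHCII-/- mice lack MHC class II, so that theirs are CD8-fated. Both were also sorted for CD5+TCRB+ cells. The AND and OT-II mice carry transgenic TCRs that recognize MHC class II (CD4-fated), and the F5 and OT-I mice carry transgenic TCRs that recognize MHC class I (CD8-fated). All TCR transgenic mice were unsorted, and AND and F5 mice also lacked Rag1 function by their labels. Rag1 UMIs were still seen in 2.17% and 6.25% of AND and in 6.42% and 19.7% of F5 cells, beside 77.1% and 81.2% in the B6 unsorted mice, and a UMI does not show a working gene. A transgenic TCR and the absence of the sort cannot be told apart except against B6 unsorted replicates 4 and 5. The B6 unsorted, OT-I and OT-II mice all belonged to the third experiment. The mouse was the replicate throughout, and p-values measure the spread between mice.

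Regulatory T cells hold self-reactive immune responses in check and depend on the transcription factor Foxp3. In the thymus they are thought to arise stepwise: a strong TCR signal first raises CD25 and the receptors GITR and OX40, and IL-2 acting through STAT5 then brings on Foxp3. Il2ra is not particular to that path, because double-negative thymocytes before the TCR is complete also carry CD25, and gamma-delta T cells, which use other receptor chains, branch off from those early cells.

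The 267 cells came from every mouse, 146 from the 9 polyclonal mice and 121 from the 8 TCR transgenic mice. Their median depth was 5282.5 RNA UMIs per cell in polyclonal mice and 14550 in transgenic mice, against 5171 and 5065 for cells of the same gate with 0 UMIs of Il2ra (Il2ra-Foxp3- cells: 5167 polyclonal and 2036 transgenic). AND replicate 1 reached a median of 24079.5. The transgenic members were thus far deeper than their counterparts, and depth raises the chance that any gene is seen. Of the members, 4.494% were called doublets, 6 had a barcode that also passed the filters in another lane, and no barcode gave members in 2 lanes. B6 unsorted replicate 4 stood apart from the other polyclonal mice in several marker sums and antibodies of its members, and results that rest on it are given with its value.

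Members differed in which TNF receptor admitted them. Tnfrsf18 was found in 82.88% of the polyclonal and 90.08% of the transgenic members. Tnfrsf4 was found in 77.4% and 17.36%, and Tnfrsf9 in 52.05% and 9.917%. All 3 receptors were found in 57 cells, 52 of them from polyclonal mice. In transgenic mice, membership rested mainly on GITR RNA. The Il2ra-Foxp3- cells of those mice were alike, with Tnfrsf18 in 83.45%, Tnfrsf4 in 20.63% and Tnfrsf9 in 8.104%. In Il2ra-Foxp3- cells of polyclonal mice the shares were 75.36%, 44.65% and 22.33%.

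At the threshold, 152 members had exactly 1 Il2ra UMI and 115 had more. In polyclonal mice the median CD25 antibody level was 1.388 per 10000 antibody UMIs in cells with 0 Il2ra UMIs, 8.94 in members with 1 and 46.37 in members with 2 or more. In the 42 such members of sorted polyclonal mice it was 26.76, and 9 of the other 11 came from B6 unsorted replicate 4. It was 79.69 in the 60 Il2ra+ cells just outside the rule, with exactly 1 Foxp3 UMI, and 72.05 in the 91 with 2 or more. In transgenic mice the members with 1 and with 2 or more Il2ra UMIs had medians of 8.885 and 300.4. The GITR antibody rose alongside in polyclonal mice, from 65.62 through 150.0 and 249.4 to 389.8, whereas in transgenic mice it stood at 45.76, 39.75 and 38.82 with 0, 1 and 2 or more Il2ra UMIs.

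Free RNA can give a UMI in a cell that does not express the gene, so the share of cells with an Il2ra UMI was set beside that of other cells. Those cells may express Il2ra themselves, so their shares do not measure free RNA. Among polyclonal cells, 5.247% of eligible cells with a TNF receptor UMI (those that meet all of the rule but Il2ra and Foxp3; median depth 5162.5) had an Il2ra UMI, against 0.9521% of eligible cells without one (3837) and 1.51% of cells with Cd8b1 but neither Rag1 nor Ptcra (4422.5). Cells with both Rag1 and Cd8b1 had it in 3.361% (2645). In transgenic mice the same shares were 5.793% (5129), 4.656% (4268), 3.167% (4573) and 23.44% (4012). There, having a TNF receptor UMI went with little more Il2ra than lacking one, and immature cells held the most. A cell with 0 UMIs of Foxp3 may also still express it: Foxp3 was seen in 6.131% of polyclonal and 0.8276% of transgenic eligible cells with a TNF receptor UMI.

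The balance of Foxp3-negative and Foxp3-positive cells within the Il2ra+ gate differed between the kinds of mice. The plot of cells by mouse shows that members were matched by similar numbers of Il2ra+Foxp3+ cells in most polyclonal mice and by almost none in transgenic mice. B6 sorted replicates 1 to 3 had 10, 26 and 22 members beside 13, 34 and 20 Il2ra+Foxp3+ cells, and B6 unsorted replicates 4 and 5 had 21 and 4 beside 14 and 4. The MHCI-/- mice had 24 and 29 beside 27 and 33, and the MHCII-/- mice 6 and 4 beside 2 and 4. The AND mice had 32 and 12 members beside none, and the F5 mice 3 and 6 beside none. The OT-II mice had 21 and 9 beside 3 and 1, and the OT-I mice 31 and 7 beside 1 and 0.

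**Figure D1:**
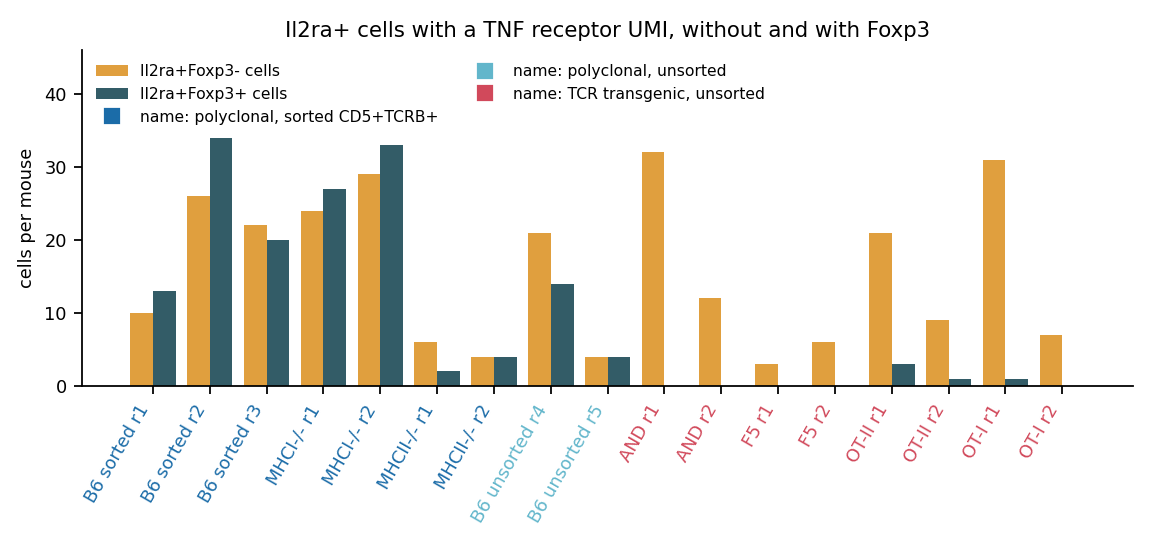
Bars give the number of cells per mouse with UMIs of Il2ra and of a TNF receptor, without Foxp3 (orange) and with it (dark), and the color of each mouse's name gives its kind. The 3 largest transgenic groups of members, 32, 31 and 21 cells, stand beside 0, 1 and 3 Foxp3+ cells, while in polyclonal mice the Foxp3+ bars are mostly close to those of the members, and below them in B6 unsorted replicate 4 (21 and 14 cells) and MHCII-/- replicate 1 (6 and 2).

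In mice with at least 10 Il2ra+ cells, the Foxp3-negative share was 94.9 ± 5.80% (SD, n = 5) in transgenic and 48.8 ± 6.38% (SD, n = 6) in polyclonal mice. The lowest transgenic share was 87.5% and the highest polyclonal one 60%, so the groups did not overlap. The difference of 46.04 percentage points is made of genes in the rule and is given as a description, with no test. Of polyclonal cells, 20 of 39 below 3000 UMIs (51.28%) and 28 of 54 with at least 8000 (51.85%) were Foxp3-negative. Of transgenic cells it was 77 of 78 with at least 8000 UMIs (98.72%). Below 3000 UMIs it was 4 of 5, too few to set apart (exact Clopper-Pearson 95% intervals of 28.36 to 99.49% in transgenic and 34.78 to 67.58% in polyclonal mice, for counting error only). B6 unsorted replicate 4, the mouse with no sort and a polyclonal repertoire, had the 60%.

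Whether the frequency of Il2ra+Foxp3- cells differed between CD4-fated and CD8-fated mice depended on the depth of thinning and on the cells they were a share of. With every cell thinned to 1500 UMIs, they made up 0.207 ± 0.208% of the cells of the 6 CD4-fated mice and 0.0783 ± 0.0624% of those of the 6 CD8-fated mice (SD). The difference of 0.129 percentage points had p = 0.190 in a two-sided exact permutation test over 924 splits. Cells with a Cd8b1 UMI cannot be members, so the share of all cells in CD8-fated mice is partly set by the rule. The tests on it cannot tell that from a difference in these cells. Without thinning, the shares were 0.578% and 0.254%, a difference of 0.324 points with an exact permutation p of 0.113. Thinned to 3000 UMIs they were 0.385% and 0.120%, a difference of 0.265 points with an exact permutation p of 0.0498. Of eligible cells thinned to 1500 UMIs they made up 0.334 ± 0.284% and 0.197 ± 0.172%, a difference of 0.137 points with an exact permutation p of 0.331. At 3000 UMIs the shares of eligible cells were 0.681% and 0.450%, a difference of 0.231 points with an exact permutation p of 0.227. The order of the shares of eligible cells turned without thinning, at -0.215 points with an exact permutation p of 0.604.

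The RNA of the members was next summed in each mouse with at least 10 of them, 6 polyclonal (B6 sorted replicates 1 to 3, MHCI-/- replicates 1 and 2 and B6 unsorted replicate 4) and 4 transgenic (AND replicates 1 and 2, OT-II replicate 1 and OT-I replicate 1). Values are CPM, UMIs of a gene scaled so that every sum has the same total, and antibody levels are per 10000 antibody UMIs. Fold changes, their standard errors (SE) and adjusted p-values come from edgeR's quasi-likelihood test with Benjamini-Hochberg adjustment over all genes or antibodies tested. In the order just given, Il2ra itself stood at 264, 274, 292, 338, 250 and 342 CPM in polyclonal members and at 187, 219, 488 and 178 CPM in transgenic ones, which overlap. Tnfrsf4 ranged from 719 to 1277 CPM in polyclonal and from 17.9 to 97.6 CPM in transgenic members, and Tnfrsf18 from 366 to 874 and from 57.2 to 150 CPM, neither overlapping. All 3 genes belong to the rule, which admits a cell at 1 UMI, and 1 UMI is more CPM in a shallow cell. Median depths of all members were 5282.5 RNA UMIs in polyclonal and 14550 in transgenic mice. These levels are thus partly set by the rule and the depth, and their overlap or lack of it is only a description.

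The markers of the expected cell type separated the kinds of mice. Polyclonal members carried genes known from regulatory T cells and their precursors, among them Ikzf2, which encodes the transcription factor Helios. Their Cd4 was above that of transgenic members but below that of Il2ra-Foxp3- cells of the same mice. The 9 CD4 lineage genes summed to 743 to 1374 CPM in polyclonal and 633 to 927 CPM in transgenic members, which overlap. Members in transgenic mice were low in the regulatory genes and high in the constant regions of the gamma and delta TCR chains and in cell cycle genes, and are named here only by the rule. Over 2771 genes tested between the kinds of mice, 326 were higher (11.8%) and 367 lower (13.2%) in transgenic members, 25% in all. This comparison was added after the data were seen, and its fit held no term for the experiment.

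Constant-region genes of the gamma and delta chains were higher in transgenic members. Tcrg-C1 stood at 1309, 637, 927 and 408 CPM in AND replicates 1 and 2, OT-II replicate 1 and OT-I replicate 1. It was at 0 in 4 of the polyclonal mice, at 41.8 in B6 sorted replicate 3 and at 180 in B6 unsorted replicate 4. The transgenic mice lay above every polyclonal mouse (log2 fold change 4.19 ± 0.68 SE, adjusted p = 0.00037).

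Trdc, the delta constant gene, was at 225, 247, 510 and 357 CPM in the transgenic members and at 0 to 67.2 CPM in the polyclonal ones, again without overlap (log2 fold change 3.12 ± 0.49, adjusted p = 0.000272). Tcrg-C4 was higher too (126 to 272 against 0 to 11.98 CPM, adjusted p = 1.15e-05), as was Tcrg-C2 (301 to 499 against 0 to 294 CPM, adjusted p = 0.0137). The highest polyclonal value of both belonged to B6 unsorted replicate 4. These 4 of the 7 gamma-delta markers passed the filter on low counts, which a gene can pass through the kind of mouse in which it is high, and the others did not. The counts and medians of lists given here are over such genes, are descriptions and support nothing on their own. Over all genes the median log2 fold change was -0.02. AND and F5 mice cannot rearrange these loci without Rag1, so a constant-region UMI does not show a rearranged receptor.

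**Figure D2:**
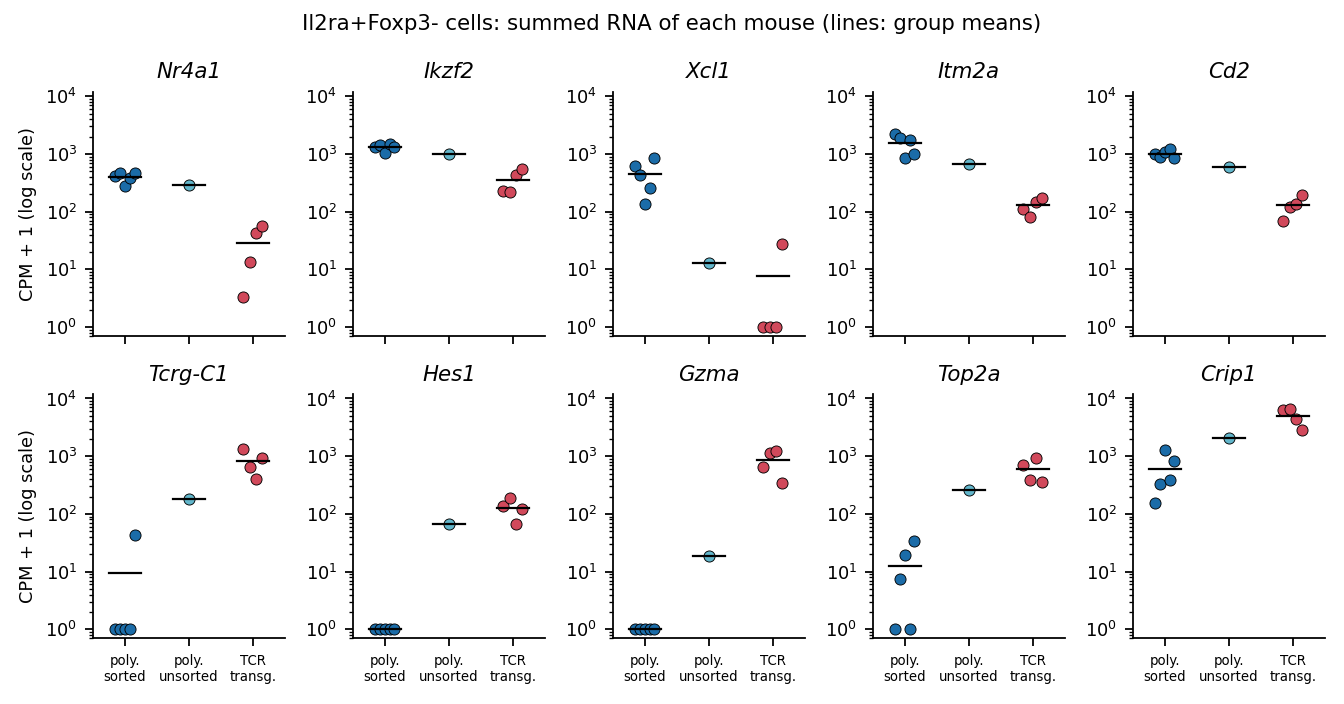
Each point is the summed RNA of the Il2ra+Foxp3- cells of 1 mouse, in CPM + 1 on a log scale, for sorted polyclonal (5 mice), unsorted polyclonal (1 mouse, B6 unsorted replicate 4) and TCR transgenic mice (4), with lines at group means. The top genes, from Nr4a1 to Cd2, are lower in the transgenic mice, and the bottom genes, from Tcrg-C1 to Crip1, are higher, with the unsorted polyclonal mouse between the groups or near the transgenic mice for Hes1, Top2a and Crip1.

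Cell cycle genes stood high in the transgenic members. Top2a, a topoisomerase of dividing cells, was at 695, 385, 353 and 928 CPM, against 0, 6.36, 33.4, 18.3, 0 and 258 CPM in polyclonal members (log2 fold change 3.24 ± 0.67, adjusted p = 0.00209). The 8 members of the 10-gene cycle list that passed the filter were higher, with a median of 3.24, Ube2c (3.71) and Tyms (3.52) among them. Over all genes tested 11.8% were higher. B6 unsorted replicate 4 gave the highest polyclonal value of Top2a, and its summed cycle genes, 1007 CPM, were above the 242 CPM of the next polyclonal mouse but below the 1580 to 3348 CPM of the transgenic mice.

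Gzma, Cpa3, Hes1 and Crip1 were also higher, Hes1 as 1 of 2 tested of the 6 double-negative markers and Crip1 as 1 of 2 higher, with 1 lower, among 6 tested of the 10 genes of recirculating cells. Gzma, which encodes the protease granzyme A, stood at 658, 1152, 338 and 1247 CPM in transgenic members and was seen in a single polyclonal mouse, B6 unsorted replicate 4, at 18.0 CPM (adjusted p = 5.54e-06). Hes1, a target of Notch that is high in double-negative thymocytes, was at 135, 191, 120 and 65.4 CPM, and at 0 in the 5 sorted mice but 65.9 CPM in B6 unsorted replicate 4 (adjusted p = 0.0035). Crip1, a small LIM-domain protein of effector and recirculating T cells, was at 2875 to 6579 CPM against 153 to 2049 CPM (log2 fold change 2.48 ± 0.50, adjusted p = 0.00164). Cpa3, a carboxypeptidase, was at 240 to 1198 CPM, and among polyclonal mice only B6 unsorted replicate 4 had any, at 71.9 CPM (adjusted p = 0.000119). Gzma, Hes1 and Cpa3, at 0 in the 5 sorted mice, passed the filter on low counts through the transgenic mice. Their p-values are descriptions.

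In the other direction, genes that follow TCR signals were lower in the transgenic members. Nr4a1, an immediate response gene of TCR signaling, was at 416, 464, 460, 283, 379 and 294 CPM in polyclonal members and at 2.38, 12.2, 56.3 and 41.6 CPM in transgenic ones (log2 fold change -3.98 ± 0.49, adjusted p = 5.85e-05). Itm2a, a membrane protein induced during positive selection, was at 671 to 2193 CPM against 81.1 to 169 CPM (-3.50 ± 0.34). Cd2, an adhesion receptor of T cells, was at 599 to 1197 against 66.7 to 195 CPM (-2.97 ± 0.29, adjusted p = 1.19e-05). Of the 16 genes of the TCR response list 12 were tested and 11 were lower, with a median of -2.57, beside 13.2% lower over all genes tested.

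Regulatory and NF-kappaB genes went the same way. Ikzf2 was at 1346, 1419, 1312, 1042, 1497 and 1019 CPM in polyclonal members and at 224, 215, 540 and 432 CPM in transgenic ones (-1.92 ± 0.26, adjusted p = 8.54e-05). Rel, the NF-kappaB subunit c-Rel that is needed to induce Foxp3, was at 91.4 to 534 against 16.7 to 95.2 CPM, which overlap slightly, and fell by 2.63 on the log2 scale. Over all genes tested 13.2% were lower. The 6 of 18 regulatory genes that passed the filter were lower (median -2.28), as were the 9 of 19 NF-kappaB genes that did (median -2.45). So were 5 of 7 tested of 13 genes of the IL-2 and STAT5 list (median -1.17). Among the last, Cish, a STAT5 target that dampens cytokine signals, was at 11.98 to 164 CPM against 3.96 to 15.01 CPM (-3.76 ± 0.59, adjusted p = 0.000287), the ranges overlapping through B6 unsorted replicate 4. Interferon-stimulated genes were lower in 6 of 6 tested of 7 (median -2.16). Among transgenic mice the summed NF-kappaB genes spanned similar ranges in members (453 to 902 CPM, 4 mice) and in Il2ra-Foxp3- cells (434 to 895 CPM, 8 mice).

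Xcl1, a chemokine that draws dendritic cells, was at 624, 426, 844, 137, 256 and 11.98 CPM in polyclonal members, and among transgenic mice only OT-II replicate 1 had any, at 26.3 CPM (adjusted p = 0.000431). Cd4 was at 65.9 to 177 CPM in polyclonal and 12.2 to 37.5 CPM in transgenic members, without overlap. At the surface, CD4 antibody was at 319 to 862 per 10000 in polyclonal members, B6 unsorted replicate 4 the lowest, and at 359, 305, 224 and 186 in transgenic ones, so that the groups overlapped through that mouse.

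Marker lists of other cells, summed over their genes, moved with the kind of mouse. Gamma-delta markers summed to 1514 to 2368 CPM in transgenic members, and in polyclonal members to 0 to 557 CPM with a median of 71.7. In Il2ra-Foxp3- cells they summed to 457 to 1716 CPM in 8 transgenic mice and to 45.3 to 311 CPM in 9 polyclonal mice. The former range reaches into that of the transgenic members, but those came from only 4 of the 8 mice, so the ranges are not over the same mice. Double-negative markers summed to 228 to 434 against 41.6 to 389 CPM, and double-positive markers to 472 to 787 against 73.1 to 791 CPM. Dendritic and myeloid markers overlapped (192 to 1415 against 137 to 2031 CPM), and erythroid markers were at or near 0 in both. In each of the overlapping lists the polyclonal maximum was that of B6 unsorted replicate 4. The part of these cells in the differences between the kinds of mice was not tested.

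Among unsorted mice alone, with at least 3 members each, 29 genes passed, 5 higher and 24 lower. That fit also held 10 mice, but B6 unsorted replicates 4 and 5, with 21 and 4 members, were its only polyclonal ones. Of the genes named here, Nr4a1 (log2 fold change -3.19), Cd2 (-2.09), Rel (-2.42) and Tcrg-C4 still passed. Tcrg-C1, Tcrg-C2, Trdc, Hes1, Top2a, Ube2c, Tyms, Gzma, Cpa3, Crip1, Ikzf2 and Itm2a had the same direction and did not pass, with adjusted p from 0.0613 to 0.725. All 12 log2 fold changes were nearer 0 than in the fit with sorted mice. Gzma was at 4.49 (adjusted p = 0.0805) and Cpa3 at 2.69 (adjusted p = 0.395). Tcrg-C1 was at 2.03, Trdc at 2.14 and Tcrg-C2 at 0.78. Top2a was at 1.35, Ube2c at 1.72, Tyms at 1.75, Crip1 at 1.33 and Hes1 at 0.79. Ikzf2 was at -1.27 and Itm2a at -1.89. Cish, Xcl1 and Cd4 did not pass the filter on low counts there and were not tested. The sort and the transgene cannot otherwise be told apart.

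Of 103 antibodies, 5 were higher (4.85%) and 1 was lower (0.971%) in transgenic members, 5.83% in all. The count depends on the method, with 21 by library size in place of TMM scaling (14 higher and 7 lower), 21 by DESeq2 (11 higher and 10 lower) and 2 to 18 with single mice left out. The 12 members of AND replicate 2 had a median of only 993 antibody UMIs per cell, against 3714 over all members. CD106 (VCAM-1), an adhesion molecule, stood at 106, 73.3, 19.6 and 13.6 per 10000 in AND replicates 1 and 2, OT-II replicate 1 and OT-I replicate 1, and at 3.64 to 8.99 in polyclonal members (log2 fold change 2.45 ± 0.39, adjusted p = 0.00245). CD71, the transferrin receptor of growing cells, was at 95.2 to 388 against 26.8 to 44.8 (2.35 ± 0.57, adjusted p = 0.0248). CD73, an enzyme that makes adenosine and is carried by many regulatory T cells, was at 9.93 to 22.5 against 20.9 to 93.1, which overlap (-2.33 ± 0.56, adjusted p = 0.0248). CD93, F4-80 and CD45R-B220 were also higher, by 2.28, 1.87 and 1.12 on the log2 scale, but at low levels. They averaged 13.0 ± 9.62, 16.7 ± 11.1 and 7.85 ± 7.36 per 10000 (SD) in transgenic members, against 1.82, 3.32 and 2.05. None of the 6 passed among unsorted mice alone, and the direction of CD45R-B220 turned there (-0.16). With single mice left out, CD106 and F4-80 passed throughout. CD71 was lost without any of B6 sorted replicates 1 and 2, MHCI-/- replicates 1 and 2 and AND replicate 1 (adjusted p = 0.0512 to 0.0731), CD73 without AND replicate 1, MHCI-/- replicate 1 or OT-II replicate 1 (0.0609 to 0.0625) and CD93 without AND replicate 1 (0.0609). CD45R-B220 was lost without any of the 8 mice other than B6 unsorted replicate 4 and OT-I replicate 1.

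Sums cannot show whether the same cells carried these genes, so single members were also classed, after thinning each to 3000 UMIs and leaving out shallower cells. These classes were defined after the data were seen. A UMI of at least 2 of the 4 gamma and delta constant genes was found in 71 of 117 transgenic members (60.68%) and in 2 of 126 polyclonal ones (1.587%). The 2 came from the 18 unsorted polyclonal members, and none of the 108 sorted members qualified, which allows a share of up to 2.78% by counting error alone, over cells pooled from several mice. Without thinning, 1 of 121 sorted members qualified, from B6 sorted replicate 3. Among Il2ra-Foxp3- cells the shares were 18.83% and 1.407%, so that the transgenic members exceeded even their own counterparts. The gates were set before thinning, on transgenic cells with a median of 15100 UMIs in members and 5198.5 in counterparts. Thinning evens the detection of the class genes but not that choice of deeper cells, whose part was not tested.

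By mouse, the gamma-delta share was 68.75% and 50% in the AND replicates, 55.17% in OT-I replicate 1 and 47.62% in OT-II replicate 1. At least 4 of the 16 TCR response genes were found in 10.26% of transgenic and 54.76% of polyclonal members, beside 25% and 39.97% of the Il2ra-Foxp3- cells and 18.18% of the polyclonal Il2ra+Foxp3+ cells. After thinning no transgenic member of 117 was in both classes, whereas without thinning 56 of 121 were, so the thinned count does not show that the classes exclude each other. At least 3 of the 10 cycle genes were found in 45.3% and 2.381% of members, which were likewise gated before thinning. Without thinning, the gamma-delta shares were 70.25% and 2.74% and the response shares 63.64% and 76.71%, so that the gap in response genes was smaller at unequal depth.

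**Figure D3:**
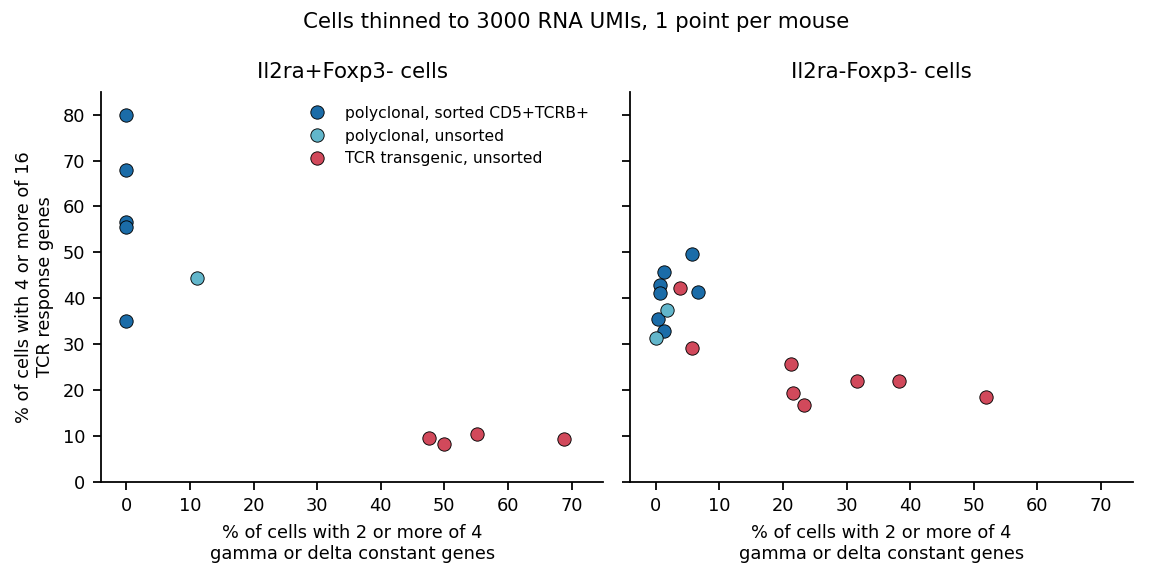
Each point is 1 mouse with its share of cells (in %), all thinned to 3000 RNA UMIs, that hold UMIs of at least 2 of 4 gamma or delta constant genes (x axis) and of at least 4 of 16 TCR response genes (y axis), for Il2ra+Foxp3- cells (left) and Il2ra-Foxp3- cells (right). On the left the 4 transgenic mice lie at 47.62% or more on the x axis and near 10% or less on the y axis, apart from all polyclonal mice. On the right F5 replicate 1 (3.846% and 42.31%) lies among the polyclonal mice on both axes, and AND replicate 2 (5.728%) on the x axis alone. The other transgenic mice there lie at 21.3% or more on the x axis, beside a polyclonal maximum of 6.707%. Apart from F5 replicate 1, all lie at 29.13% or less on the y axis, beside a polyclonal minimum of 31.25%.

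A comparison within mice asked how the members differed from Il2ra+Foxp3+ cells of the same mice, which meet all of the rule but the absence of Foxp3. It was made in the 6 polyclonal mice with at least 10 cells of both, each mouse its own control. The Foxp3+ cells of all 9 polyclonal mice had a median depth of 5113 UMIs. Of 1843 genes tested 113 were higher (6.13%) and 144 lower (7.81%) in the Foxp3- members, 13.9% of those tested in all. The 257 calls became 74 without B6 sorted replicate 2, 123 without MHCI-/- replicate 2, 155 without B6 sorted replicate 1 and 165 without B6 unsorted replicate 4. With library size in place of TMM scaling the split was 149 and 110, so the balance of the directions depends on the scaling. Without cells holding UMIs of at least 3 dendritic or myeloid markers, 281 genes and 4 antibodies were called.

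Genes of recent TCR signaling led the higher ones. Nr4a1 ran from 283 over a median of 398 to 464 CPM in the members and from 0 over 35.2 to 119 CPM in the Foxp3+ cells of the same mice. The groups did not overlap (log2 fold change 2.92 ± 0.37, adjusted p = 0.000127). Nr4a3, of the same family of nuclear receptors, was at 159, 179 and 318 CPM (lowest, median, highest) against 0, 5.90 and 33.8 CPM (3.70 ± 0.46, adjusted p = 0.00011). Itm2a was at 671, 1376 and 2193 against 180, 209 and 365 CPM (2.52 ± 0.20, adjusted p = 8.84e-07).

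Over all genes 6.13% were higher (median 0.02), while the 8 of 16 TCR response genes that passed the filter were higher (median 1.52). They included Cd69, which keeps thymocytes in the thymus (1.68 ± 0.23, adjusted p = 0.00028), and Dusp5, a phosphatase of the ERK pathway (1.37). Among genes of death and survival, Bcl2l11, which encodes the death-promoting protein BIM, was higher too. It was at 75.2, 315 and 445 CPM against 0, 22.5 and 35.4 CPM (3.68 ± 0.35, adjusted p = 6.34e-06), again without overlap. Gadd45b, a stress response gene, averaged 365 against 26.1 CPM (3.61 ± 0.31). Only these 2 of the 6 tested of 14 death and survival genes were called.

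Of the NF-kappaB list 2 of 8 tested of 19 were called, both higher, beside 6.13% higher over all genes. They were Nfkbid, an atypical inhibitor protein that promotes Foxp3 induction (207 against 35.0 CPM, 2.35 ± 0.37, adjusted p = 0.00103), and Nfkb1 (1.09). Other leading genes were Marcksl1 (2.25), the survival gene Bcl2a1d (2.21), the transcription factor Sox4 (2.14) and the histone demethylase Kdm6b (2.07). Cd28, the costimulatory receptor, was higher by 0.73 (adjusted p = 0.0158). Nfkb1 did not pass without B6 sorted replicate 2 (adjusted p = 0.108) or MHCI-/- replicate 2 (0.0571), nor Cd28 without B6 sorted replicate 1 (0.0593) or 2 (0.0555).

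Foxp3+ cells exceeded the members in regulatory genes. Ctla4, an inhibitory receptor of regulatory T cells, was at 0, 94.0 and 209 CPM in the members and at 224, 267 and 297 CPM in the Foxp3+ cells, without overlap (-1.50 ± 0.32, adjusted p = 0.00729). Ikzf4, a relative of Ikzf2 and a partner of Foxp3, was at 44.5, 70.5 and 126 against 146, 212 and 271 CPM (-1.51 ± 0.24, adjusted p = 0.00103), also apart. Of 18 regulatory genes 8 were tested and 5 were lower, beside 7.81% lower over all genes. Among the 5 were Izumo1r, the folate receptor 4 (-1.33, adjusted p = 0.00731), and Gpr83 (-1.42, adjusted p = 0.0311). Without B6 sorted replicate 2, Ctla4 (-1.30, adjusted p = 0.0509), Izumo1r (-1.23, adjusted p = 0.0547) and Gpr83 (-1.04, adjusted p = 0.167) did not pass. Gpr83 did not pass without MHCI-/- replicate 2 (adjusted p = 0.0573) or B6 unsorted replicate 4 (adjusted p = 0.0686) either.

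Ikzf2 itself was level at this resolution. It was at 1019, 1329 and 1497 CPM in the members and at 924, 1242 and 1922 CPM in the Foxp3+ cells, with overlapping ranges (-0.04, adjusted p = 0.885). Icos (-0.77, adjusted p = 0.113) and Nrp1 (-0.72, adjusted p = 0.256) did not pass either.

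**Figure D4:**
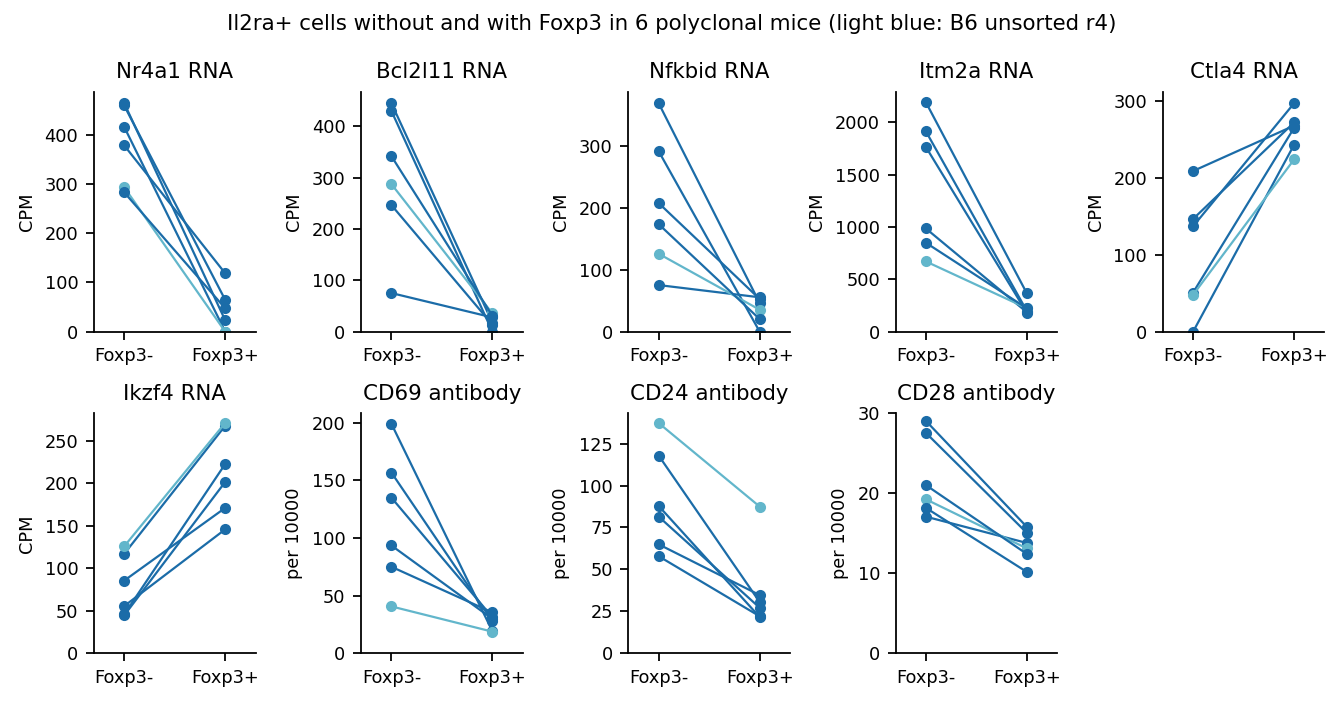
Lines join the Il2ra+ cells without and with Foxp3 of the same polyclonal mouse (6 mice, B6 unsorted replicate 4 in light blue), as CPM for 6 genes and as UMIs per 10000 antibody UMIs for 3 antibodies. The Nr4a1, Bcl2l11, Nfkbid and Itm2a lines fall from Foxp3- to Foxp3+ cells in all 6 mice and those of Ctla4 and Ikzf4 rise, while the antibodies CD69, CD24 and CD28 fall.

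Genes of maturation and egress were lower in the members for 6 of 9 tested of 13, with a median of -0.72. S1pr1, the receptor that leads T cells out of the thymus, was at 41.6, 92.1 and 164 CPM against 155, 239 and 314 CPM (-1.32, adjusted p = 0.00567), the ranges overlapping slightly. Klf2, the factor that drives S1pr1 (-1.22, adjusted p = 0.0130), and H2-K1 (-0.67) were among them. Of the IL-2 and STAT5 list 2 of 7 tested of 13 were lower: Il2rb, the beta chain that CD25 pairs with (57.3 against 145 CPM, -1.39 ± 0.34, adjusted p = 0.0152), and the kinase gene Pim1 (-1.08). Of 7 interferon genes 6 were tested and 2 were lower, Ifi27l2a (-1.07) among them. Over all genes 7.81% were lower. Without B6 sorted replicate 2, Klf2 (-1.08) and Il2rb (-1.22) did not pass, with an adjusted p of 0.0813 for both. Without MHCI-/- replicate 2, Il2rb did not pass (adjusted p = 0.0571). Gsta4 (-1.85), Mbnl3 (-1.69), Hopx (-1.55) and Rgs1 (-1.48) led the remaining lower genes.

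Of 101 antibodies 4 were higher in the members and none lower, 3.96% of those tested. CD69 was at 40.7, 114 and 199 per 10000 (lowest, median, highest) against 18.7, 28.7 and 35.4 (log2 fold change 2.00 ± 0.33, adjusted p = 0.0127), as its RNA was. CD24, an antigen lost on maturation, was at 57.9, 84.6 and 137 against 21.6, 28.8 and 87.4 (1.45 ± 0.22, adjusted p = 0.0127). CD28 was at 17.1, 20.2 and 29.1 against 10.2, 13.5 and 15.8 (0.74 ± 0.13, adjusted p = 0.0127), apart, and CD90.2 was higher by 1.18 ± 0.23 (adjusted p = 0.0228). All 4 calls were lost in wild-type mice alone (adjusted p = 0.129 for each) and without MHCI-/- replicate 2 (0.0553 to 0.117), with every fold in the same direction. CD28 and CD90.2 were also lost without MHCI-/- replicate 1 (adjusted p = 0.0614 for both), and CD90.2 without B6 sorted replicate 2 (0.0923) or 3 (0.0762).

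Against the Foxp3+ cells that lacked Il2ra UMIs, in the same 6 mice and with the same members, 181 genes were higher (9.35%) and 212 lower (11%) of 1935 tested, 20.3% in all, and 173 genes in all without B6 sorted replicate 2. With library size in place of TMM scaling the split was 237 and 157. The leading genes were again of TCR signaling: Nr4a3 (log2 fold change 3.45 ± 0.37), Nr4a1 (383 against 41.7 CPM, 3.24 ± 0.28, adjusted p = 7.54e-07), Nfkbid (2.85 ± 0.34) and Dusp5 (2.28). Of the TCR response list 6 of 8 tested were higher (median 1.72), and of the NF-kappaB list 5 of 8 tested (median 0.96).

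S1pr1 (-1.84 ± 0.24, 95.1 against 338 CPM), Klf3 (-1.94) and Klf2 (-1.39) led the lower genes, and 7 of 9 tested maturation genes were lower (median -0.64). Only 1 of 8 tested regulatory genes was lower, Ikzf4 (median -0.32), near the 11% lower over all genes. Of 101 antibodies edgeR called 0, a share of 0%, while 13 had an unadjusted p under 0.05 and DESeq2 called 6. The 2 comparisons share their members, so their likeness is not a separate observation.

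The members were also set against Il2ra-Foxp3- cells of the same mice, which meet all of the rule but Il2ra. Over all 10 mice 696 genes were higher (8.4%) and 660 lower (7.96%) of 8290 tested, 16.4% in all, and 9 antibodies were higher (8.49%) and 7 lower (6.6%) of 106, 15.1% in all. The 1356 genes became 816 without AND replicate 1, 848 without OT-I replicate 1 and 891 without OT-II replicate 1, and the 16 antibodies became 8 without B6 unsorted replicate 4 and 10 without OT-I replicate 1. No antibody was called in wild-type mice only or for members with 2 or more Il2ra UMIs. Myc, a driver of growth, averaged 133 against 42.2 CPM (log2 fold change 1.61 ± 0.16), and Odc1, which starts polyamine synthesis and is a Myc target, 173 against 57.3 CPM (1.5 ± 0.15). The amino acid transporter gene Slc7a1 (1.46), Mbnl3 (2.33) and Ybx3 (1.88) were higher in every mouse. Zbtb7b, which encodes the CD4 lineage factor ThPOK (-2.38 ± 0.35), the homing receptor gene Ccr9 (-1.94) and Cd7 (-1.69) were lower in every mouse.

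Whether these differences depended on the kind of mouse was tested as the interaction of the gate with the kind of mouse, and 983 of 8290 genes passed, 11.9% of those tested, 559 with a larger (6.74%) and 424 with a smaller (5.11%) log2 difference in transgenic mice. Without AND replicate 1, 509 genes passed. With library size in place of TMM scaling the split was 431 and 506. Fitted separately, 547 of 8327 genes passed in polyclonal mice (6.57%; 3.52% higher, 3.05% lower) and 2718 of 8664 in transgenic mice (31.4%; 17.3% higher, 14.1% lower), where members were much deeper. Dendritic and myeloid markers summed to a median of 2707 CPM in the Il2ra- cells of 8 transgenic mice, and to 579 CPM in the members of 4. Such cells were kept in these fits, and their part was not tested.

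In polyclonal mice, regulatory genes were higher in the members than in their Il2ra- counterparts, 9 of 11 tested of 18 with a median of 1.33, beside -0.06 over all genes. Over all genes 3.52% were higher there. Ctla4 was at 0 to 209 CPM in the members and 0.971 to 47.9 CPM in the Il2ra- cells of the 9 polyclonal mice (2.87 ± 0.32, adjusted p = 9.35e-09). Nrp1, a semaphorin coreceptor of thymic regulatory T cells, was higher by 2.90 ± 0.36 (adjusted p = 6.12e-08), and Ikzf2 by 1.59 ± 0.11 (adjusted p = 2.7e-15). In transgenic mice Ikzf2 changed by 0.40 (adjusted p = 0.161) and Nrp1 by 0.47 (adjusted p = 0.55), and the interaction passed for both, with adjusted p = 0.000645 and 0.00916, the latter lost without OT-II replicate 1 (adjusted p = 0.12). The interaction of Ctla4 had an adjusted p of 0.00193, and of 0.0586 without AND replicate 1. In transgenic mice no regulatory gene of 9 tested was higher, and 4 were lower (median -0.94), Gpr83 the most (-3.78). Over all genes 17.3% were higher and 14.1% lower in transgenic mice.

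TCR response genes were higher in 9 of 15 tested of 16 in polyclonal mice (median 0.92), beside 3.52% higher over all genes. Nr4a1 was at 283 to 464 CPM in the members and 75.6 to 207 CPM in the Il2ra- cells of polyclonal mice (1.97 ± 0.15, adjusted p = 1.96e-13). In transgenic mice it stood at 2.38 to 56.3 and 2.41 to 172 CPM (-0.56, adjusted p = 0.285), and the interaction passed (adjusted p = 3.2e-05). Of 13 tested there, Myc was higher and 7 were lower, among them Itm2a (-2.38, adjusted p = 6.35e-05) and Cd69 (-0.78, adjusted p = 0.0294). Over all genes there 17.3% were higher and 14.1% lower. Myc was like in both kinds, at 1.67 and 1.49, with an adjusted p of 0.828 for the difference.

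NF-kappaB genes were higher in 11 of 19 in polyclonal mice (median 1.15), beside 3.52% higher over all genes. Rel was at 1.94 ± 0.19 (adjusted p = 2.38e-10) and Tnfaip3, the feedback inhibitor A20, at 2.05 ± 0.26 (adjusted p = 1.1e-07). In transgenic mice 1 of 19 was called, lower, beside 14.1% lower over all genes. On the IL-2 and STAT5 list 5 of 12 tested were higher in polyclonal mice (median 0.35), Cish by 2.88 ± 0.32 (adjusted p = 6e-09) and Il2rb by 1.59. In transgenic mice Cish changed by -0.08 (adjusted p = 0.94), and its interaction had an adjusted p of 0.00127. Xcl1 led the polyclonal genes, at 11.98 to 844 CPM in members against 7.43 to 118 CPM in Il2ra- cells (4.31 ± 0.24).

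Cell cycle genes parted the kinds of mice in opposite directions. All 10 were higher in transgenic members than in their counterparts (median 2.46), with Top2a up by 2.56 ± 0.37, beside 17.3% higher over all genes. In polyclonal mice 4 of 10 were lower (median -1.29), with Top2a at -1.36 ± 0.34 (adjusted p = 0.00686), and all 10 passed the interaction. Over all genes 3.05% were lower in polyclonal mice and 11.9% passed the interaction. Cd4 was lower in the members of both kinds, by 0.88 and 2.73 on the log2 scale, more so in transgenic mice (interaction adjusted p = 0.00136). Tcrg-C1 was higher by 2.72 ± 0.21 in transgenic members. In polyclonal members its log2 fold change was 1.70 ± 0.60 and did not pass (adjusted p = 0.0809), with UMIs in the members of B6 sorted replicate 3 and B6 unsorted replicate 4 alone. The interaction did not pass either (adjusted p = 0.497).

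**Figure D5:**
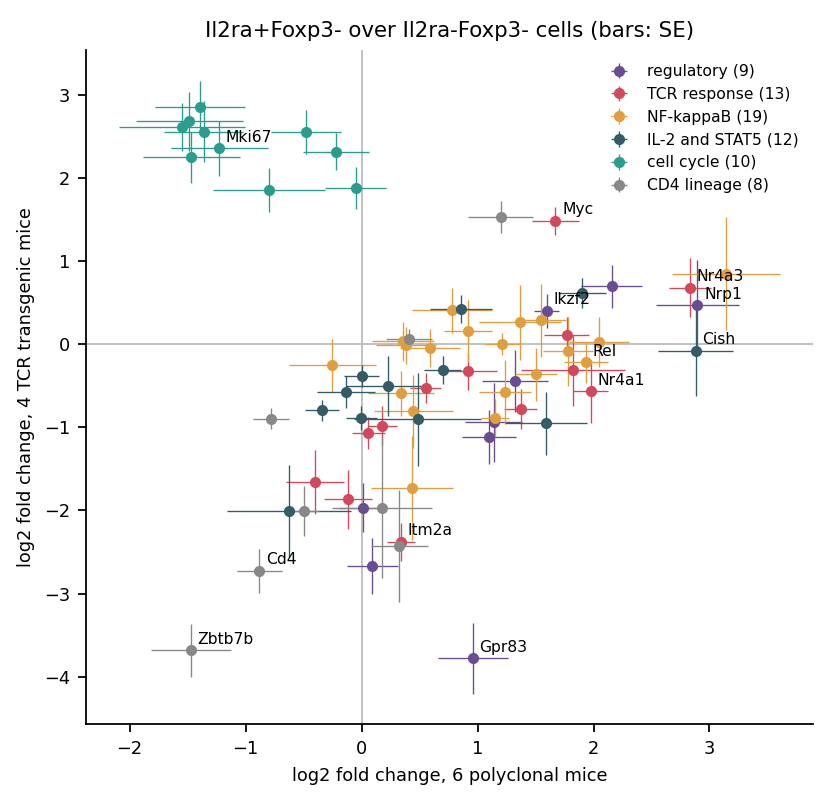
Each point is a gene of 6 lists, with its log2 fold change of Il2ra+Foxp3- over Il2ra-Foxp3- cells in 6 polyclonal mice (x axis) and in 4 TCR transgenic mice (y axis) and bars of 1 SE. Cycle genes lie at the upper left, higher in transgenic and mostly lower in polyclonal members, Myc is higher in both, and many regulatory, TCR response and NF-kappaB genes lie to the right of 0, on both sides of 0 on the y axis.

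Antibodies showed both shared and separate differences, with 15 of 106 passing the interaction (14.2%; 8.49% larger and 5.66% smaller in transgenic mice). In polyclonal mice 11.3% of antibodies passed and in transgenic mice 24.5%. CD304, the protein of Nrp1, was at 1.83 to 79.9 per 10000 in polyclonal members and at 9.67 to 19.7 in transgenic ones, and exceeded the Il2ra- cells in both (2.68 ± 0.46, adjusted p = 0.0133, and 1.05 ± 0.25, adjusted p = 0.00785). CD54 (ICAM-1) was higher by 1.45 and 1.18, CD38 by 1.83 and 1.90, and CD117 (the receptor Kit of early progenitors) by 1.14 and 1.97, with no call on the differences. Lower in the members of all 10 mice were the TCR beta chain (-0.78, adjusted p = 0.00358) and CD4 (-0.84, adjusted p = 0.0123). By kind, the TCR beta chain changed by -0.76 and by -0.70, the latter not passing (adjusted p = 0.0918). CD4 changed by -0.43 and -1.37, with an interaction p of 0.00853 after adjustment. CD106 (0.22 and 1.79) and CD71 (0.23 and 1.82) were higher in transgenic members, and both interactions had an adjusted p of 0.00555. CD73 was higher by 1.03 in polyclonal members (adjusted p = 0.0311) and changed by -0.58 in transgenic ones (adjusted p = 0.0755), with an interaction p of 0.00853 after adjustment. The antibody to gamma-delta receptors was lower in transgenic members than in their counterparts (-0.77 ± 0.26, adjusted p = 0.0435). Between the members of the 2 kinds of mice it averaged 10.9 in transgenic and 9.90 per 10000 in polyclonal mice and did not pass (-0.70, adjusted p = 0.263). The antibody to the TCR beta chain, at 103 and 86.8, did not pass there either (0.18, adjusted p = 0.791).

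A comparison of members between CD4-fated and CD8-fated mice could rest only on OT-II replicate 1 against OT-I replicate 1, since no CD8-fated mouse of the other families had 10 members. Each side was thus 1 mouse, assumed to vary like the AND and MHCI-/- replicates that supplied the spread. It called 9 genes higher (0.169%) and 16 lower (0.3%) of 5337, 0.468% in all, and no antibody of 106 (0%; 7 at an unadjusted p under 0.05). Ccnd2, which encodes cyclin D2, was at 503 CPM in OT-II replicate 1 and 131 CPM in OT-I replicate 1, and Mki67, a proliferation marker, at 135 and 517 CPM. With all 12 lineage-restricted mice of at least 3 members, edgeR called no gene, and 64 had an unadjusted p under 0.05. Without the family covariate 1 gene was called at 10 members. The calls therefore compare that pair of mice and not the fates.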

How the data were processed

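Thymocytes of 17 mice had been profiled by CITE-seq on 19 lanes. The authors deposited raw counts of UMIs for each gene, antibody and barcode, made with Cell Ranger 3.1.0 on the mm10 (GRCm38) reference per the labels. RNA depth was 9893333 to 43303999 UMIs per lane (median 21266764) and antibody depth 4484116 to 34762051, over 2550 to 9408 barcodes. A sum of few cells is imprecise, and rare genes were often unseen in single cells.

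UMIs of each gate were summed per mouse (minimum 10 cells) and tested with edgeR 4.0.16 (R 4.3.3) using TMM scaling, the filterByExpr filter, quasi-likelihood F-tests and Benjamini-Hochberg adjustment. Comparisons between gates took the mouse as a block. Calls had adjusted p under 0.05. Standard errors are the absolute log2 fold change divided by the root of F. The 10 genes and 5 antibodies of the rule were left out of tests. Shares were compared by exact permutation of mice. Scripts used python 3.11.15, numpy 2.4.6, scipy 1.17.1, pandas 2.3.3 and matplotlib 3.10.9, and DESeq2 1.42.0, library size scaling, other filters and left-out mice were alternatives. The fits were tested on simulated data.

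Named genes were up to 10 per direction (antibodies up to 8) with the largest change among those called, with a mean of at least 20 CPM and, within mice, the same direction in every mouse, plus members of the lists named for their role. Members and lists were chosen with earlier results of these data known, and further genes named for their role were chosen after values were seen. Doublets were scored against simulated ones at 0.8% per 1000 barcodes and kept. Pooled matrices were not used here.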

Additional observations from a re-analysis of the deposited data

Results flagged for a closer look

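Among the members of the 6 polyclonal mice, B6 unsorted replicate 4 lay apart from the others in 7 marker sums. Its summed CD8 lineage genes reached 3104 CPM, with the next mouse at 468, and its dendritic and myeloid markers 2031 CPM, with the next at 305. Its cycle genes summed to 1007 CPM (next 242), gamma-delta markers to 557 CPM (next 134), double-negative markers to 389 CPM (next 159), double-positive markers to 791 CPM (next 150) and erythroid markers to 11.98 CPM, with the others at 0.

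The same mouse lay apart in 6 antibodies, per 10000 antibody UMIs. CD54 was 233 (next 51.7), CD49d 44.0 (12.7), CD90.2 436 (176), CD200 110 (39.4) and CD93 4.25 (1.88), all high, and CD150 was low at 81.0 (next 206). MHCI-/- replicate 1 was apart in Sca-1, at 281 with the next at 91.4. Of the 4 transgenic mice, AND replicate 2 was apart in CD274, at 70.4 with the next at 43.6. With 100 groups of mice examined, about 1 in 20 would be set apart by chance.

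The difference between Il2ra+Foxp3- and Il2ra-Foxp3- cells itself differed between transgenic and polyclonal mice for 983 genes and 15 antibodies by edgeR's test of the interaction.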

How the results depend on the processing

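Genes called against Il2ra+Foxp3+ cells numbered 257, and DESeq2 gave 127, a minimum of 20 cells 120 and cells of at least 4000 UMIs 138. Leaving out single mice gave 74 to 324, among them 155 without B6 sorted replicate 1, 74 without replicate 2, 123 without MHCI-/- replicate 2 and 165 without B6 unsorted replicate 4. Antibodies called numbered 4, with 9 by DESeq2, 8 at 20 cells, 0 at 4000 UMIs and 0 in wild-type mice only, and 0 to 6 with mice left out. Against Foxp3+Il2ra- cells there were 393 genes, with 218 by DESeq2, 172 at 20 cells, 226 at 4000 UMIs and 173 to 424 with mice left out (173 without B6 sorted replicate 2). Antibodies numbered 6 by DESeq2, 2 at 20 cells, 1 without doublets and 0 to 2 with mice left out.

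Against Il2ra- cells there were 1356 genes, with 804 at 20 cells, 647 under the protein filters, 2700 for members with 2 or more Il2ra UMIs, 313 in wild-type mice only, 547 in polyclonal mice only and 2718 in transgenic mice only. Leaving out mice gave 816 to 1570 (816 without AND replicate 1, 848 without OT-I replicate 1, 891 without OT-II replicate 1). Antibodies numbered 16, with 28 by DESeq2, 0 with 2 or more Il2ra UMIs, 0 in wild-type mice only, 26 in transgenic mice only and 8 to 20 with mice left out, and CD274 turned to -0.21 with 2 or more Il2ra UMIs. The interaction gave 511 genes under the protein filters and 509 to 1019 with mice left out (509 without AND replicate 1), and 9 to 17 antibodies.

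Between kinds of mice there were 693 genes, with 1610 without a low-count filter and 29 in unsorted mice only, and 550 to 751 with mice left out. Antibodies numbered 6, with 21 by DESeq2, 21 by library size (14 higher, 7 lower; this scaling shifts the median of all by 0.553), 10 under the protein filters, 12 without doublets, 0 in unsorted mice only and 2 to 18 with mice left out. CD45R-B220 turned to -0.16 in unsorted mice only. Between fates there were 25 genes, with 2 by DESeq2, 39 without a low-count filter, 44 under the protein filters, 72 without doublets, 15 at 4000 UMIs, 1 without the family covariate, 0 at 3 cells and 36 to 63 with mice left out, and antibodies numbered 4 under the protein filters and 0 to 0 with mice left out.

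The share of all cells differed by 0.265 points when thinned to 3000 UMIs (exact permutation p = 0.0498), and by 0.0576 to 0.166 with mice left out (0.0576 without MHCI-/- replicate 2). The share of eligible cells differed by 0.231 points when thinned to 3000 UMIs (exact permutation p = 0.227). It differed by -0.215 points unthinned, -0.0675 with 2 or more Il2ra UMIs and 0.0552 to 0.197 with mice left out. The Foxp3-negative share differed by 44.8 to 48.3 points with mice left out. Of the values of single named genes and antibodies over all alternatives, 3042 kept their call or lack of one and 263 lost the call. Another 7 gained it and 2 turned, CD274 and CD45R-B220. Turns of direction were counted only where the main fit or the alternative passed. The cause of these changes was not tested.

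Same-numbered mice deviated together with correlations of 0.0458 (AND and F5), 0.089 (MHC-deficient) and 0.4037 (OT), over 3682 genes. Only the OT pair lay above 0.1, and the AND and F5 mice of a number also shared an experiment, so a pairing was not assumed and both fits are given. With the replicate block between fates, 0 genes and 0 antibodies were called at 3 cells, and the share tests had exact permutation p of 0.156 and 0.406. Without the mouse block, 191, 1686 and 286 genes and 1, 2 and 0 antibodies were called against Foxp3+, Il2ra- and Foxp3+Il2ra- cells. No value could be had with 2 or more Il2ra UMIs for the comparisons other than that with Il2ra- cells, nor between fates with the replicate block at 10 cells or without OT-I or OT-II replicate 1. Depth limits what single cells show, since a cell with 0 UMIs of a gene may still express it.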
